A study of Mus musculus with 10 samples.

Results

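The libraries of this series fall on both sides of a line at a 5% mitochondrial share, the share of all counts that fell on genes of the mitochondrial genome. A script summed the counts of the 37 genes whose name starts with mt- in each library and divided by the library total. Of 10 libraries, 5 lay above 5% (Control 3 and 4 and TMA-ARB 8, 9 and 10) and 5 lay at or below it (Control 1, 2 and 5 and TMA-ARB 6 and 7). The 10 libraries come from tumours that FVB/N mice grew in the mammary gland after implantation of MCa-M3C, a line of mouse breast cancer cells. Tumours of about 100 mm3 received PBS (Control, n = 5) or TMA-ARB, valsartan in a form made to act in the tumour microenvironment, at 40 mg/kg of valsartan (n = 5). Both were injected retro-orbitally into a vein each day for 6 days, and RNA was selected by its poly-A tail. Whether every library is a different mouse is not stated in the labels, and the p-values reflect the variation among these 10 libraries, part of which may be technical. All tumours share 1 cell line and 1 host strain, and the sides were made from the data and are not groups of the study.

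The mitochondrial genome encodes a small set of respiratory chain subunits and the rRNAs and tRNAs used to translate them. Every other mitochondrial protein is encoded in the nucleus, translated on cytosolic ribosomes and imported. The respiratory chain therefore draws on both genomes, and in RNA-seq the mitochondrial share is recorded as a property of a library as well as of a tissue.

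The share was 2.07% in Control 2, 2.15% in Control 1, 2.22% in TMA-ARB 6, 3.18% in TMA-ARB 7 and 3.75% in Control 5. Above the line it was 6.37% in Control 3, 6.63% in Control 4, 10.5% in TMA-ARB 8, 11.7% in TMA-ARB 10 and 24.97% in TMA-ARB 9. Control 5 is the library just inside the lower side and Control 3 the one just outside it. These values chose the libraries and carry no test. In what follows, the 5 values of a side are given in this order of rising share, as CPM, the count scaled to the nuclear total of the library by the usual convention, so that the mitochondrial counts themselves could not lower a nuclear value.

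**Figure D1:**
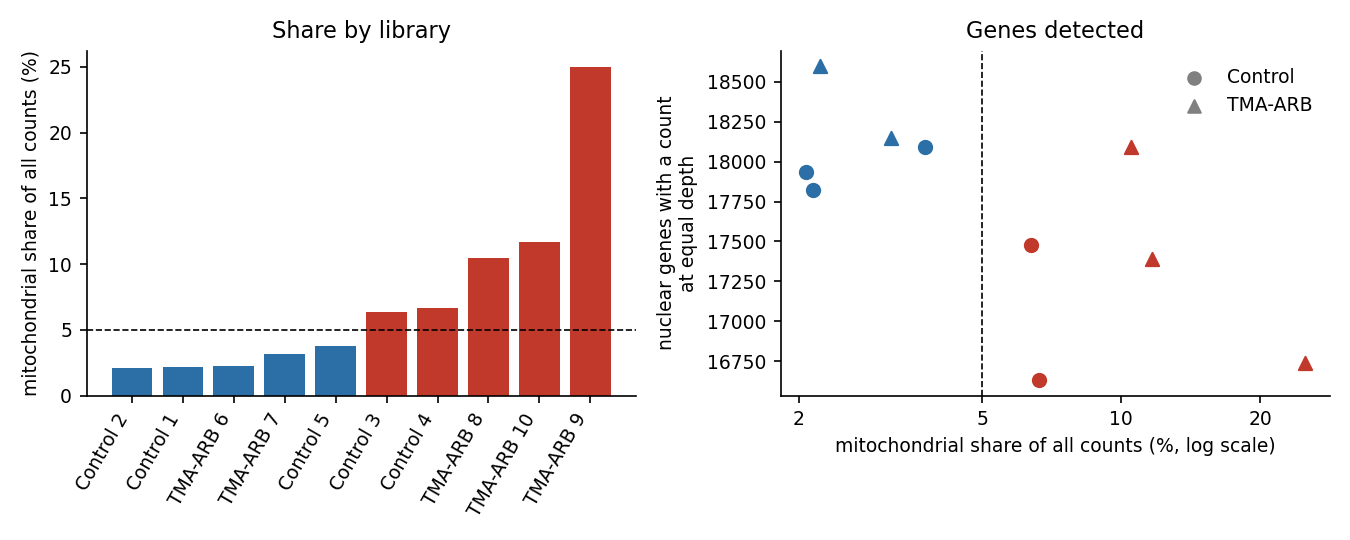
Left, the mitochondrial share of all counts (%) in each library, with the line at 5%; right, the number of nuclear genes with a count, at the depth of the shallowest library, against the share on a log scale (circles Control, triangles TMA-ARB; blue at or below 5%, red above). The share reached 24.97% in TMA-ARB 9, and TMA-ARB 8 and Control 5 had the same number of genes, 18089.

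Nuclear counts ran from 13455081 to 16534793 at or below the line and from 9560992 (TMA-ARB 9) to 13925055 above it. At equal depth, 16632 to 18089 nuclear genes had a count above the line and 17823 to 18597 at or below it. On the first principal component of nuclear genes (36.2% of variance), the sides did not overlap; Control 5 (-14.8) lay closest to the other side (23.5 to 108) and TMA-ARB 9 (108) farthest. The epithelial keratin and junction list summed to 172 to 432 CPM in the 10 libraries and the mesenchymal list to 8277 to 14743 CPM, and the milk gene Wap was at 0 in every library.

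Several results turn on genes that share sequence with another gene, so 3 such pairs are shown first. The stretches were read from GENCODE mouse release 21 transcripts (build GRCm38), 60 bases each, 5′ to 3′, and capitals mark bases that differ between the members of a pair. The first is a mitochondrial mRNA, mt-Co1, and Gm13340, an unprocessed pseudogene on chromosome 2 (22588103 to 22589647, minus strand) whose transcript is 97.6% identical to it over 1545 bases, shown from position 460 to 519 of both.
mt-Co1: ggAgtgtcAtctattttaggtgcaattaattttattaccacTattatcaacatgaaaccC
Gm13340: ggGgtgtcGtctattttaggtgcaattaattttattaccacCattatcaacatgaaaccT
The second is Srp54b and Srp54a, neighbouring genes of chromosome 12 (55230168 to 55263836 and 55080262 to 55115367, plus strand) for a subunit of the signal recognition particle, 99.5% identical over 3640 bases, shown from positions 1415 to 1474 and 1413 to 1472 of their transcripts.
Srp54b: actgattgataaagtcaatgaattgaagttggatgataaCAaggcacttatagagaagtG
Srp54a: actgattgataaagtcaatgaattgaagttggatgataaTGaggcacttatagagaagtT
The third is Actr3 (chromosome 1, 125392905 to 125435727, minus strand), a subunit of the actin-nucleating Arp complex, and its processed pseudogene Gm15899 (chromosome 8, 122683602 to 122683839, minus strand), identical over the pseudogene's 238 bases, shown from positions 388 to 447 of Actr3 and 1 to 60 of Gm15899.
Actr3: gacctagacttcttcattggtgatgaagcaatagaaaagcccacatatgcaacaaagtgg
Gm15899: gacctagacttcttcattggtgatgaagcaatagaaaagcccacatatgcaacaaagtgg

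Across the mitochondrial genome the 13 mRNAs were higher above the line by a ratio of 3.85 (mt-Nd3) to 5.72 (mt-Atp6), with a median of 5.32, relative to nuclear counts. The 2 rRNAs had ratios of 4.53 (mt-Rnr1) and 4.82 (mt-Rnr2). The ranges of the sides did not overlap for 12 of 13 mRNAs; for mt-Nd3 the lowest library above the line held 149 CPM and the highest below it 210 CPM. The makeup of the mitochondrial counts differed little: mRNAs were 95.9% ± 0.72 of them above the line and 95.6% ± 0.90 at or below it (SD, n = 5 each), and mt-Co1 was 23.3% and 23.1%. These values are part of the rule and are a description.

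The comparison asked which nuclear genes differ between the sides at equal treatment. It used edgeR's quasi-likelihood test with treatment as a covariate, and a gene was called at a Benjamini-Hochberg adjusted p under 0.05. Of 15770 nuclear genes tested, 8.36% were called: 544 were higher above the line (3.45%) and 775 were lower (4.91%). The difference had the same sign within Control and within TMA-ARB for all 1319. Those differences also made the calls, so their shared sign is no separate support. The Control libraries alone called 6 genes higher and 22 lower, and the TMA-ARB libraries alone 535 and 705. The ranges of the sides did not overlap for 9.58% of genes tested (719 higher, 4.56%, and 791 lower, 5.02%). In the same fit 0 genes were called for treatment (635 at an unadjusted p under 0.05; 4030 for the side). The counts depend on single libraries: 199 higher and 290 lower without TMA-ARB 6, 241 and 346 without TMA-ARB 7, 284 and 412 without TMA-ARB 9, 299 and 383 without TMA-ARB 10, and 361 and 427 without Control 1. With the summed levels of muscle and adipocyte markers as added terms, 13 genes were called higher and 24 lower. Those marker sums overlapped between the sides (muscle 83.0 to 255 CPM above and 129 to 320 below; adipocyte 86.2 to 111 and 93.3 to 123), and their part in the result was not tested.

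Among genes without a near-identical copy, 7 protein-coding genes are given here that had some of the smallest p-values; beyond Fmo1, Oaz3, Ulbp1 and Cmah they were chosen after their values were seen. Fmo1, a flavin monooxygenase that oxidises drugs and other foreign compounds, was at 13.0, 13.3, 10.9, 11.0 and 15.7 CPM at or below the line and at 36.7, 41.9, 37.2, 51.8 and 92.4 CPM above it. Every library above the line exceeded every one below. The log2 fold change of Fmo1 was 1.97 (SE 0.27, edgeR adjusted p = 0.0019). Oaz3, an antizyme that holds back ornithine decarboxylase and is best known in testis, averaged 9.36 ± 4.16 CPM above and 1.58 ± 0.31 CPM below (log2 fold change 2.56, SE 0.38, edgeR adjusted p = 0.00273). Adamts13, the protease that trims von Willebrand factor, averaged 29.6 ± 14.5 CPM above and 5.29 ± 2.35 CPM below (log2 fold change 2.44, SE 0.36, edgeR adjusted p = 0.00343). The library of highest share, TMA-ARB 9, had the highest value of all 3 genes. Crebbp, a histone acetyltransferase and coactivator, was at 44.2, 36, 37.8, 26.8 and 57.6 CPM below and at 108, 103, 112, 95.6 and 206 CPM above (log2 fold change 1.64, SE 0.26, edgeR adjusted p = 0.00427).

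In the other direction, Ulbp1, a ligand of the activating receptor NKG2D of natural killer cells, was at 16.0, 10.6, 24.6, 25.0 and 7.06 CPM below the line and at 1.68, 2.88, 4.50, 2.81 and 2.26 CPM above it. The lowest value below the line, in Control 5, was still above all 5 on the other side. The log2 fold change of Ulbp1 was -2.63 (SE 0.31, edgeR adjusted p = 0.000698). Cmah, the hydroxylase that makes N-glycolylneuraminic acid, averaged 20.9 ± 2.35 CPM above and 64.0 ± 27.2 CPM below (log2 fold change -1.65, SE 0.20, edgeR adjusted p = 0.000757). Nupl1, a nuclear pore protein, averaged 7.88 ± 2.46 CPM above and 39.5 ± 17.0 CPM below (log2 fold change -2.32, SE 0.29, edgeR adjusted p = 0.00111). All 7 genes stayed called when any single library was left out, and 6 of them with the muscle and adipocyte terms; Crebbp did not (adjusted p = 0.0515).

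Calls among non-coding genes were nearly all higher above the line, and calls among pseudogenes were mostly lower. Of 323 long intergenic RNA genes 29 were called higher and 1 lower (median log2 fold change 0.81, against -0.04 over all genes tested), and of 349 antisense genes 20 and 0 (median 0.81). Small structural RNA genes (small nuclear, nucleolar and cytoplasmic RNAs) had 13 of 83 called higher and 0 lower (median 1.77). Among those called, Gm25072 has 181 near-identical copies, Gm24576 has 28, Metazoa_SRP has 3 and Gm22662 has 0. Alone, Gm25072, Gm24576 and Metazoa_SRP had log2 fold changes of 3.37, 3.31 and 2.81. Summed with their copies, they had log2 ratios of 0.28, 0.45 and -0.0055. How fully a poly-A library measures this class was not tested. Pseudogenes had 27 of 1038 called higher and 84 lower (median -0.13), and protein-coding genes 426 and 689 of 13629 (median -0.07). Long intergenic RNA genes held 1.25% ± 0.43 of nuclear counts above the line and 0.576% ± 0.16 below (SD, n = 5 each). The share and the number of genes detected moved with the sides too, and their part in these counts was not tested.

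**Figure D2:**
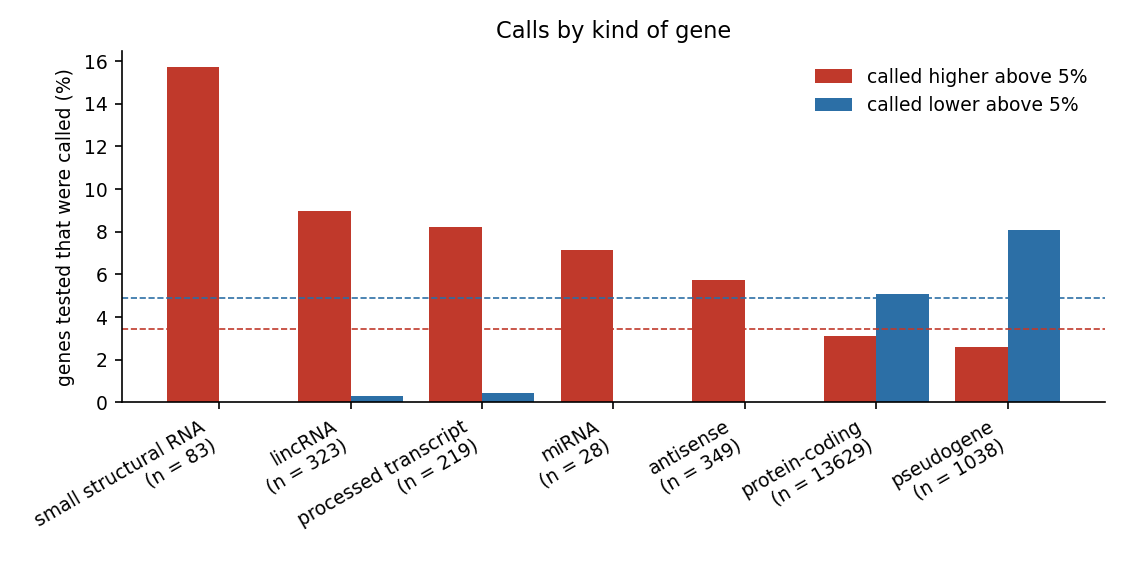
Share of the genes tested in each class (%) that edgeR called higher (red) or lower (blue) in the libraries above 5%, with the number tested under each class; dashed lines mark the shares over all 15770 genes (3.45% and 4.91%). Small structural RNAs reached 15.7% higher, and pseudogenes 8.09% lower.

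Rn7sk, the small nuclear RNA that restrains transcription elongation and has 5 near-identical copies, averaged 19.9 ± 10.2 CPM above and 7.60 ± 4.37 CPM below (log2 fold change 1.68, SE 0.43, edgeR adjusted p = 0.0315). Its ranges overlapped, and its call was lost without Control 4, TMA-ARB 6, TMA-ARB 7 or TMA-ARB 10. Snora31, a nucleolar RNA that guides pseudouridylation, was at 0.867, 1.13, 0.883, 0.722 and 1.18 CPM below and at 3.79, 4.39, 2.09, 3.10 and 3.34 CPM above (log2 fold change 1.88, SE 0.44, edgeR adjusted p = 0.0194), without overlap; its call was lost without Control 4, TMA-ARB 6 or TMA-ARB 7. Neat1, the scaffold RNA of nuclear paraspeckles, was at 640, 538, 257, 306 and 703 CPM below and at 788, 790, 1447, 1572 and 1471 CPM above (log2 fold change 1.37, SE 0.35, edgeR adjusted p = 0.0316). Xist, the RNA that coats the inactive X chromosome, averaged 450 ± 92.9 CPM above and 277 ± 30.4 CPM below (log2 fold change 0.61, SE 0.16, edgeR adjusted p = 0.0307). The sides did not overlap for either, though the call of Neat1 was lost in 5 and that of Xist in 7 of the 10 fits that left out 1 library. The non-coding genes A430010J10Rik (15.3 ± 9.07 CPM above and 2.38 ± 0.76 CPM below), Gm26804 (20.6 ± 13.6 and 3.01 ± 1.42 CPM) and Gm17066 (61.2 ± 28.0 and 15.4 ± 3.99 CPM) kept their calls in all 10 such fits.

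Of 28 genes annotated as miRNAs 2 were called higher (7.14%, against 3.45% over all genes tested). One was mmu-mir-6236 (chromosome 9, 110281287 to 110281409), at 69.1, 118, 45.7, 34.3 and 78.4 CPM below and 101, 280, 147, 158 and 233 CPM above (log2 fold change 1.63, SE 0.32, edgeR adjusted p = 0.0116). The ranges overlapped through Control 1 and Control 3, and the call was lost without TMA-ARB 6 or TMA-ARB 7. Its mature form in RefSeq is shown with the seed, bases 2 to 8, in capitals, since the count falls on the whole annotated gene and a poly-A library does not measure mature miRNAs.
mmu-miR-6236: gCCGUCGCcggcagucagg
Above the line, most counts of this class were on Gm26377, a miRNA annotation (chromosome 9, 78478528 to 78478635, minus strand). It lies inside the gene of the translation elongation factor Eef1a1 (78478449 to 78489151), on the same strand. Gm26377 was at 0 in 4 libraries below the line, at 209 CPM in Control 5, and at 437 to 1442 CPM above the line. It was not called (edgeR adjusted p = 0.301), and its reads cannot be told apart from those of Eef1a1.

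Genes with a near-identical copy (at least 95% identity over at least 50% of the transcript) were called lower more often, 107 of 1395 (7.67%), than genes without one, 668 of 14375 (4.65%). All 12 lower genes of largest fold had such a copy. Srp54a and Gm20390 (near-identical to the kinase gene Nme2) were annotated as protein-coding and the other 10 as pseudogenes. Gm15899 was at 28.2, 21.9, 30.5, 34.3 and 8.76 CPM below the line and at 0 in all 5 libraries above it, at least 102-fold lower against a floor of 3 counts per library (edgeR adjusted p = 1.29e-05). Its parent Actr3 averaged 672 ± 78.5 CPM above and 756 ± 132 CPM below and was not called (adjusted p = 0.49), and the sum of parent and copies had a log2 ratio of -0.22. Srp54a was at 30.1, 11.1, 15.2, 15.4 and 7.06 CPM below and at 0.0701, 0, 0, 0 and 0 CPM above (edgeR adjusted p = 4.65e-06). Srp54b averaged 96.2 ± 12.7 CPM above and 112 ± 13.1 CPM below and was not called (adjusted p = 0.438). The printed stretches differ at 3 of 60 bases for Srp54a and Srp54b and at 0 for Gm15899 and Actr3, so reads over much of these genes fit both.

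A further 5 of these copies were at 0 in every library above the line. Hmgn2-ps1, a pseudogene of the nucleosome-binding gene Hmgn2, was at least 46.6-fold lower, and summed with its copies it had a log2 ratio of 0.34. RP24-222L21.1, a copy of the annexin gene Anxa11, was at least 52.1-fold lower (summed, -0.45). Gm14680, a copy of Sms (spermine synthase), was at least 237-fold lower, with a summed log2 ratio of 0.07. Gm10698, a copy of the cargo receptor gene Tmed2, was at least 174-fold lower (summed, -0.46), and Gm6984, a copy of the heterochromatin gene Cbx3, at least 107-fold lower (summed, 0.28). The call was lost without Control 2, TMA-ARB 6 or TMA-ARB 7 for Gm10698, and in 5 of the 10 fits for Gm6984. In all, 26 called genes were at 0 in every library above the line and 4 in every library below it.

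The same held in reverse for Rps2, a protein of the small ribosomal subunit. Rps2 was at 40.9, 37.2, 47.1, 45.2 and 78.9 CPM below the line and at 300, 175, 294, 242 and 551 CPM above it (log2 fold change 2.58, SE 0.31, edgeR adjusted p = 0.00132). Its pseudogene Rps2-ps10, 99.5% identical over 926 bases, was at 2494, 2900, 2739, 2895 and 2240 CPM below and at 1911, 1698, 1333, 1339 and 710 CPM above (log2 fold change -0.91, SE 0.22, edgeR adjusted p = 0.0224). Neither gene overlapped between the sides, and Rps2 summed with its 20 copies had a log2 ratio of -0.31. The counts of each copy alone are therefore uncertain.

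The 8 nuclear genes whose transcripts match a mitochondrial mRNA all had positive differences, and 3 were called higher. Gm13340 was at 7.75, 8.68, 7.00, 14.4 and 14.8 CPM below and at 25.2, 25.2, 51.9, 51.0 and 120 CPM above (log2 fold change 2.03, SE 0.41, edgeR adjusted p = 0.0144). Gm13341, a copy of mt-Co2, had a log2 fold change of 1.99 and Gm11408, a copy of mt-Nd6, of 2.80. The call was lost without TMA-ARB 7 for Gm13340, without Control 4, TMA-ARB 6 or TMA-ARB 7 for Gm13341, and in 8 of the 10 fits that left out 1 library for Gm11408. The printed stretches of mt-Co1 and Gm13340 differ at 4 of 60 bases. Over the matching bases, the 8 genes were from 90.7% (Gm11512) to 97.6% (Gm13340) identical to the mitochondrial mRNA. Some of their counts may be mitochondrial reads, and how many was not tested. With these 8 genes left out, 541 genes were called higher and 772 lower.

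Few nuclear genes of the respiratory chain were called. Of 77 nuclear subunits of the 5 complexes, 2 were called higher and 2 lower (2.60% each, against 3.45% and 4.91% over all genes tested). The median log2 fold change was 0.22, with 48 positive and 29 negative differences and 25 at an unadjusted p under 0.05. On simulated counts 0% of genes changed by 1.5-fold were recovered, so small differences can go uncalled. Among 36 subunits of complex I, which takes electrons from NADH, 0 were called in edgeR (10 at an unadjusted p under 0.05, 27 with a positive difference, median 0.34). Sdhd, a membrane anchor of succinate dehydrogenase, was called lower, at 92.8, 130, 97.5, 214 and 73.4 CPM below the line and 41.7, 69.3, 44.5, 42.4 and 54.3 CPM above (log2 fold change -1.28, SE 0.26, edgeR adjusted p = 0.0116). The sides of Sdhd did not overlap. Atp5b, the catalytic subunit of ATP synthase, averaged 767 ± 85.2 CPM above and 1274 ± 213 CPM below (log2 fold change -0.74, SE 0.18, edgeR adjusted p = 0.0206); its call was lost without TMA-ARB 7, TMA-ARB 9 or TMA-ARB 10. Uqcrb of complex III and Cox6c of cytochrome c oxidase were called higher, with log2 fold changes of 0.71 (SE 0.19, edgeR adjusted p = 0.0344) and 0.80 (SE 0.23, edgeR adjusted p = 0.0456). Their calls were lost in 7 and 8 of the 10 fits that left out 1 library.

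Few genes of mitochondrial protein import and fatty acid oxidation were called. Hspa9, the matrix chaperone that pulls proteins through the import channel, was the 1 called of 31 import genes (3.23%, against 4.91% lower over all genes tested), at 174 ± 36.5 CPM above and 361 ± 103 CPM below (log2 fold change -1.05, SE 0.22, edgeR adjusted p = 0.0116). Of 18 fatty acid oxidation genes 2 were called lower (11.1%, against 4.91%), Hadha of the trifunctional protein (log2 fold change -0.70) and the short-chain dehydrogenase Acads (-0.93); Hadha lost its call without TMA-ARB 6, and Acads without Control 1, Control 3 or TMA-ARB 7. Tfam, which packages and transcribes mitochondrial DNA, was at 51.7 ± 7.16 CPM above and 67.7 ± 17.2 CPM below and was not called (edgeR adjusted p = 0.175). Among 33 genes of mitochondrial DNA upkeep and transcription, Fastkd2 and the tRNA-processing nuclease Elac2 were called lower (6.06%, against 4.91% over all genes tested), calls lost in 7 and 8 of the 10 fits that left out 1 library.

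Of 75 mitochondrial ribosomal proteins 7 were called lower and 2 higher (9.33% and 2.67%, against 4.91% and 3.45% over all genes tested; median -0.04). Mrpl3 of the large subunit was lowest in p, at 40.2, 54.9, 48.8, 95.1 and 27.9 CPM below the line and 16.9, 25.8, 21.3, 19.2 and 15.4 CPM above (log2 fold change -1.44, SE 0.27, edgeR adjusted p = 0.00748). Between 1 and 10 of the 75 were called lower when 1 library was left out. Cytosolic ribosomal proteins differed the other way: 18 of 78 were called higher and 2 lower (23.1% and 2.56%, against 3.45% and 4.91% over all genes tested; median 0.37). Rps28 was at 198, 239, 175, 237 and 232 CPM below and 380, 397, 347, 335 and 451 CPM above (log2 fold change 0.84, SE 0.17, edgeR adjusted p = 0.01). Rpl29 averaged 323 ± 27.6 CPM above and 181 ± 38.2 CPM below (log2 fold change 0.87, SE 0.18, edgeR adjusted p = 0.0106). Neither overlapped between the sides; between 6 and 18 of the list were called higher without 1 library. With the muscle and adipocyte terms, Rps2 was the 1 called gene of the 50 lists in this report.

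In these 3 sets the shorter genes had the higher median. Split at the median coding length, the 39 shorter respiratory chain subunits had a median log2 fold change of 0.37 (33 of 39 positive) and the 38 longer ones -0.12 (15 of 38 positive). The 39 shorter cytosolic ribosomal proteins had a median of 0.55 with 14 called higher, and the 39 longer ones 0.18 with 4. For mitochondrial ribosomal proteins the medians were 0.02 and -0.11. Over all protein-coding genes the same split gave medians of -0.06 and -0.07. The split was made after the values had been seen and carries no test.

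**Figure D3:**
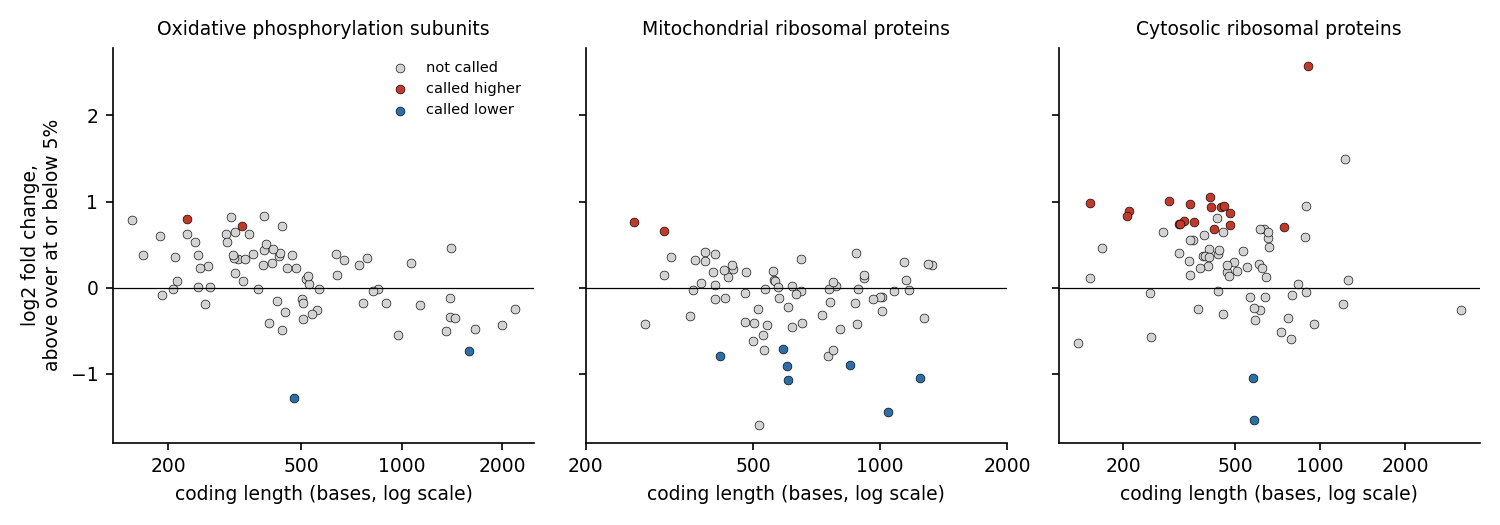
Log2 fold change (above over at or below 5%) against the coding length of each gene (bases, log scale) for 77 nuclear respiratory chain subunits, 75 mitochondrial and 78 cytosolic ribosomal proteins; red and blue points were called higher and lower by edgeR. In the left panel the 38 longer genes have a median of -0.12 and the 39 shorter ones 0.37.

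Markers of macrophages and monocytes were lower above the line. Of 20 tested, 9 were called lower and 0 higher (45.0%, against 4.91% over all genes), with a median log2 fold change of -0.84, and 19 had a negative difference. Emr1, the adhesion receptor used to define mouse macrophages, was at 65.4, 52.7, 67.6, 58.1 and 25.2 CPM below the line and at 20.2, 24.7, 10.5, 16.8 and 16.0 CPM above (log2 fold change -1.60, SE 0.27, edgeR adjusted p = 0.00551). Csf1r, the receptor that macrophages need for survival, was at 197, 197, 224, 132 and 134 CPM below and at 107, 110, 57.5, 65.2 and 29.4 CPM above (log2 fold change -1.25, SE 0.27, edgeR adjusted p = 0.0149). For both, every library above the line was lower than every one below, with Control 5 lowest below the line for Emr1. Fcgr3, a low-affinity Fc receptor, had a log2 fold change of -1.18 (SE 0.22, edgeR adjusted p = 0.00775), Ccr2, the chemokine receptor of inflammatory monocytes, -1.28 (SE 0.26, edgeR adjusted p = 0.0102), and the scavenger receptor Msr1 -1.35 (SE 0.29, edgeR adjusted p = 0.0164). Itgam, the complement genes C1qa and C1qb and the lysozyme Lyz2 were the other called members, with log2 fold changes of -0.76 to -1.43. Without TMA-ARB 6 the calls of Ccr2, Msr1 and Itgam were lost, without TMA-ARB 7 that of Msr1, and those of C1qa, C1qb and Lyz2 were lost in 5 to 8 of the 10 fits that left out 1 library. In bulk RNA, fewer cells of a type and less RNA per cell cannot be told apart.

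The whole list summed to 1637 to 4795 CPM above and 4555 to 7834 CPM below. Leaving out 1 library left 3 to 11 members called and a median between -1.05 and -0.73; with the muscle and adipocyte terms the median was -0.78 and 0 members were called. Emr1, Fcgr3 and Csf1r kept their calls in all 10 fits without a library. Of 9 mast cell markers 2 were called lower (22.2%, against 4.91% over all genes tested), and 1 to 5 in the fits that left out 1 library. Tpsb2, a mast cell tryptase, was at 9.54, 14.7, 12.6, 4.40 and 2.75 CPM below and at 2.31, 1.59, 0.321, 0.937 and 0 CPM above (log2 fold change -3.12, SE 0.68, edgeR adjusted p = 0.017). Mcpt4, a mast cell chymase, averaged 0.379 ± 0.484 CPM above and 5.02 ± 3.10 CPM below (log2 fold change -3.69, SE 0.88, edgeR adjusted p = 0.0237); its ranges overlapped, and its call was lost without Control 3, TMA-ARB 6 or TMA-ARB 7. The list summed to 16.8 to 35.3 CPM above and 29.2 to 109 CPM below, and Cma1, not called, was at 2.62 ± 1.67 CPM above and 9.04 ± 6.69 CPM below (edgeR adjusted p = 0.0573).

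**Figure D4:**
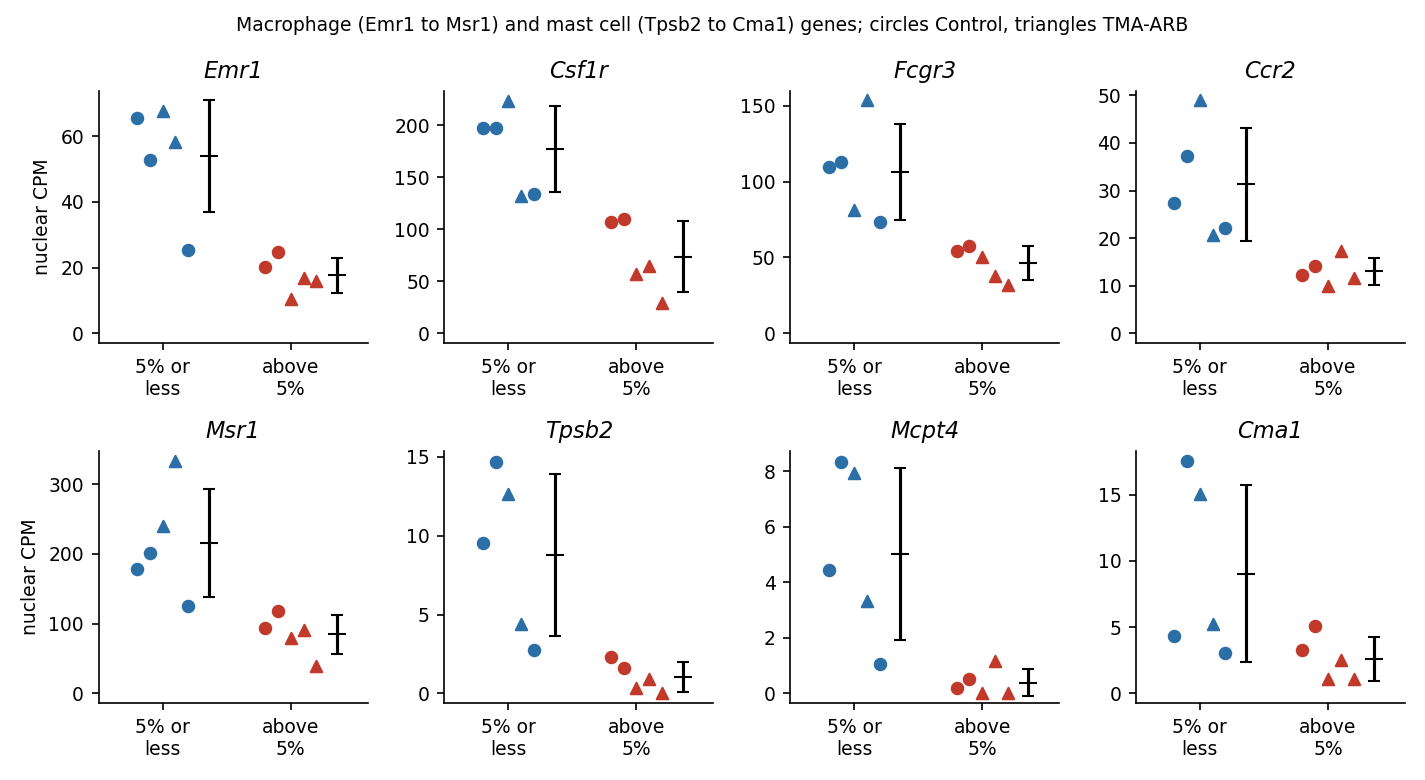
Nuclear CPM of 5 macrophage and 3 mast cell genes in each library, at or below 5% (blue) and above it (red), circles Control and triangles TMA-ARB, with the mean and SD of each side (n = 5) beside the points. The sides do not overlap except for Mcpt4 and Cma1; Emr1 averaged 17.6 CPM above and 53.8 CPM below.

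Lymphoid and other myeloid lists gave 0 calls in edgeR. They held 20 T cell, 14 cytotoxic lymphocyte, 6 B and plasma cell, 14 neutrophil and 9 dendritic cell markers. Of these, 1, 1, 0, 3 and 0 had an unadjusted p under 0.05. Over all genes tested 3.45% were called higher and 4.91% lower, so lists this small can hold 0 calls without differing from all genes. Negative differences were seen in 15, 10, 3, 11 and 7 members. Their median log2 fold changes were -0.35, -0.51, 0.12, -0.41 and -0.14. All 10 MHC class II genes tested had negative differences (median -0.46), and 0 were called. Of 14 fibroblast markers 2 were called lower (14.3%, against 4.91% over all genes tested), both matrix proteins. These were Fbln1 (log2 fold change -1.85, SE 0.43, edgeR adjusted p = 0.018) and Dpt (-3.73, SE 1.00, edgeR adjusted p = 0.0328). Dpt lost its call in 7 of the 10 fits without a library, and Fbln1 without TMA-ARB 7, TMA-ARB 9 or TMA-ARB 10. None of 17 collagens was called (5 at an unadjusted p under 0.05, median -0.38). Other lists gave single calls in both directions. Higher were Cldn5 of endothelial tight junctions (log2 fold change 0.72), Tpm2 of contractile cells (0.58), the keratin Krt18 (0.73) and, of 16 mesenchymal genes, the transcription factor Twist1 (0.65) and N-cadherin, Cdh2 (0.58). Cldn5 was the 1 called of 23 endothelial markers (4.35%), of which 19 had negative differences (median -0.38). Tpm2 was the 1 called of 14 mural and myofibroblast markers (7.14%), of which 12 had negative differences (median -0.46). Krt18 was the 1 called of 14 epithelial genes (7.14%), of which 8 had negative differences (median -0.05). The mesenchymal genes called higher were 12.5% of their list. Over all genes tested 3.45% were called higher. Lower were Tgfb1, a growth factor of the same mesenchymal list (-0.77), the cytokine Lif (-1.06) and the lipoprotein lipase Lpl of the adipocyte list (-1.47). Each was the 1 called lower of its list (6.25%, 5.26% and 9.09%, against 4.91% over all genes tested). These calls were lost in 5 to 8 of the 10 fits, except that of Lif, lost without TMA-ARB 7. B2m, the light chain of MHC class I, was at 1747, 1186, 1173, 942 and 1971 CPM below and at 2387, 2373, 3010, 2287 and 2587 CPM above (log2 fold change 0.93, SE 0.22, edgeR adjusted p = 0.019). It was the 1 called of 15 class I presentation genes (6.67%, against 3.45% higher over all genes tested), and its call was lost without TMA-ARB 6 or TMA-ARB 7. Of 28 interferon-stimulated genes 1 was called higher and 1 lower (3.57% each, against 3.45% and 4.91% over all genes tested). Xaf1, a pro-apoptotic factor, was higher (log2 fold change 1.06, SE 0.22, edgeR adjusted p = 0.0103). Oas1a, an antiviral synthetase with a near-identical copy, was lower (-0.75, SE 0.21, edgeR adjusted p = 0.0365), a call lost in 6 of the 10 fits.

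Of 30 genes of DNA replication and S phase 3 were called lower (10%, against 4.91% over all genes tested), 29 had negative differences and the median was -0.55; Mcm5, a subunit of the replicative helicase, was at 31.9 ± 11.1 CPM above and 104 ± 52.3 CPM below (log2 fold change -1.69, SE 0.36, edgeR adjusted p = 0.0193), a call lost without TMA-ARB 7, TMA-ARB 9 or TMA-ARB 10. Within Control the median of this list was -0.0041 and within TMA-ARB -1.04, and 0 to 9 members were called when 1 library was left out. Of 30 Myc target and ribosome biogenesis genes 3 were lower (10%, against 4.91%) and kept their calls without any 1 library: Odc1, which makes putrescine (log2 fold change -1.23, SE 0.23, edgeR adjusted p = 0.00738), and the ribosome assembly genes Bop1 (-1.27, SE 0.24, edgeR adjusted p = 0.00735) and Heatr1 (-1.16, SE 0.22, edgeR adjusted p = 0.00752). Among genes of cholesterol synthesis, the mevalonate pathway kinases Pmvk and Mvk and the regulator Srebf2 were lower (log2 fold changes -1.33, -0.95 and -0.65), calls lost in 4, 5 and 7 of the 10 fits. Of 38 proteasome genes 4 were lower (10.5%, against 4.91% over all genes tested), a count that fell to 1 in the fits that left out 1 library; Psmd7 lost its call in 6 of the 10. The lid subunit Psmd13, called in all 10, was at 123, 210, 168, 242 and 87.4 CPM below and 71.1, 75.0, 35.2, 55.2 and 40.1 CPM above (log2 fold change -1.59, SE 0.29, edgeR adjusted p = 0.00863).

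Splicing factors had 6 of 39 called higher (15.4%, against 3.45% over all genes tested) and 0 lower. In the fits that left out 1 library 3 to 6 were called higher and 0 to 1 lower, and the kinase Clk4 lost its call in 4 of the 10. Rbm25, which acts on splice site choice, was at 172, 168, 247, 110 and 224 CPM below and at 499, 407, 335, 517 and 675 CPM above (log2 fold change 1.39, SE 0.24, edgeR adjusted p = 0.00553). Luc7l3 (1.12, SE 0.21, edgeR adjusted p = 0.00817) and Srsf11 (0.87, SE 0.17, edgeR adjusted p = 0.00931) were also higher, and all 3 were called without any 1 library; their sides did not overlap. Hsph1, a co-chaperone, was the 1 called of 13 heat shock genes (7.69%, against 4.91% lower over all genes tested). It was at 219, 159, 181, 197 and 174 CPM below and 81.1, 85.1, 97.4, 129 and 97.2 CPM above (log2 fold change -0.98, SE 0.17, edgeR adjusted p = 0.00553). Gapdh was the 1 called of 21 glycolysis genes (4.76%, against 3.45% higher over all genes tested). Its log2 fold change was 1.33 (SE 0.34, edgeR adjusted p = 0.0303), and the call was lost in 5 of the 10 fits. Of 23 hypoxia response genes 0 were called (2 at an unadjusted p under 0.05); their median was -0.37 within Control and 1.37 within TMA-ARB.

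The difference between sides was then compared between TMA-ARB and Control with an interaction term, which called 10 of 15770 genes in edgeR (0.0634%; 1617 at an unadjusted p under 0.05). Malat1, an abundant nuclear RNA of splicing speckles, was at 677, 469 and 698 CPM in Control and 277 and 257 CPM in TMA-ARB below the line, and at 862 and 1013 CPM in Control and 2154, 2503 and 3610 CPM in TMA-ARB above it. The gap between sides was wider in TMA-ARB by 2.76 on the log2 scale (SE 0.42, edgeR adjusted p = 0.0252). Neat1 did the same by 2.08 (SE 0.34, edgeR adjusted p = 0.0359), and in both RNAs the 2 TMA-ARB libraries below the line were the lowest of all 10 and the 3 above it the highest. Mrc1, the mannose receptor of tissue macrophages, was at 254 and 260 CPM in TMA-ARB 6 and 7, at 60.8 to 82.2 CPM in the 3 TMA-ARB libraries above the line and at 106 to 134 CPM in Control (interaction -1.86, SE 0.31, edgeR adjusted p = 0.0389). Fcrls, another receptor of tissue macrophages, was at 74.7 and 44.7 CPM in TMA-ARB 6 and 7, at 4.42 to 9.80 CPM in the 3 above and at 23 to 44.4 CPM in Control (interaction -3.27, SE 0.50, edgeR adjusted p = 0.0252). Bgn, a matrix proteoglycan, Myl9, a myosin light chain of contractile cells, the reductase Cbr2, the secretory pathway gene Rcn3 and Gm15922, a polymorphic pseudogene with 9 near-identical copies, had negative terms too, and the actin-binding gene Avil a positive one. The call count was 0 without TMA-ARB 6 (2062 at an unadjusted p under 0.05), 1 without TMA-ARB 9, 2 without TMA-ARB 10, 3 without Control 2, Control 3, Control 4 or TMA-ARB 7, and 4 without TMA-ARB 8. Each combination of treatment and side holds 2 or 3 libraries.

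**Figure D5:**
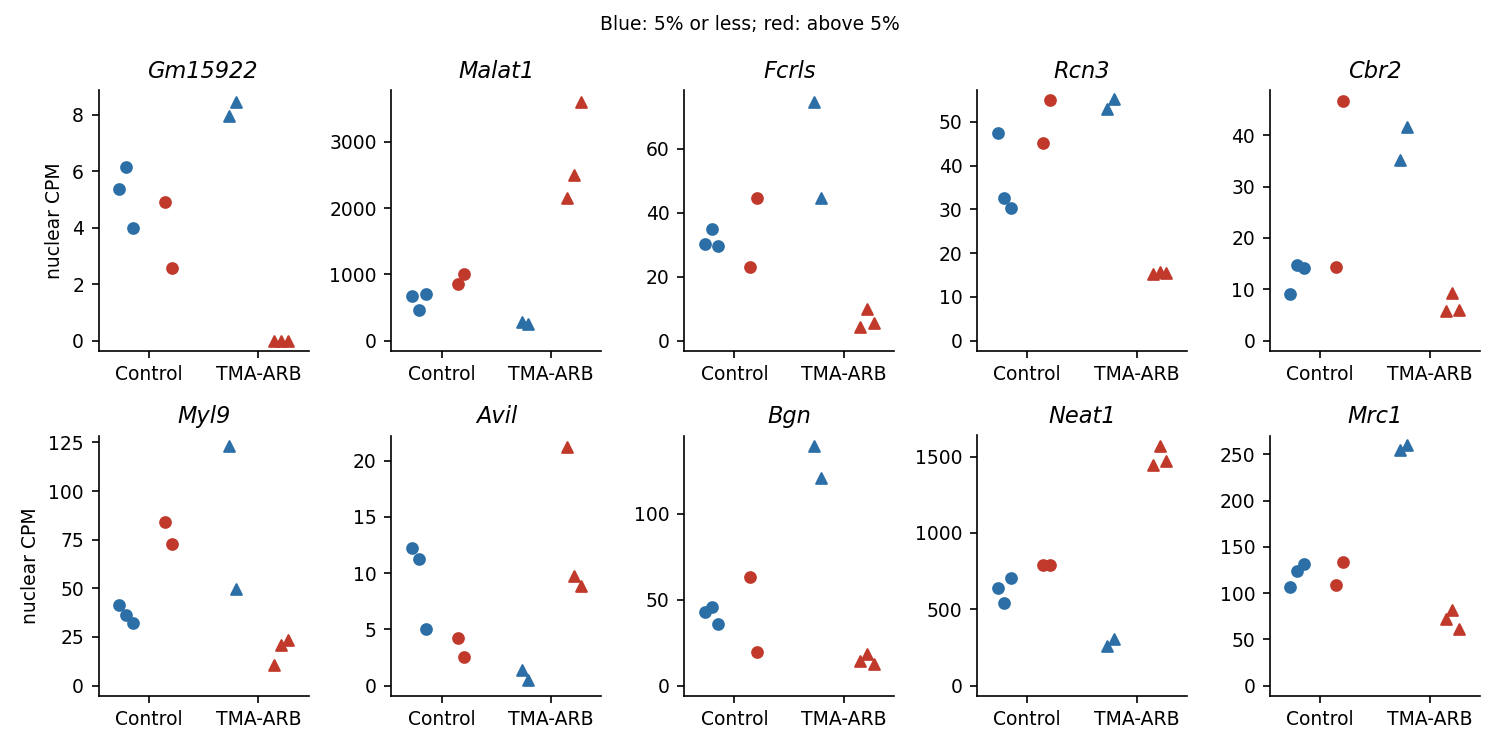
Nuclear CPM in each library for the 10 genes called by the interaction of treatment and side, Control at the left and TMA-ARB at the right of each panel, blue at or below 5% and red above. Malat1 and Neat1 run from the lowest to the highest values within TMA-ARB, while Mrc1 stays between 106 and 134 CPM in Control.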

How the data were processed

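Poly-A RNA of 10 tumours was sequenced. The deposited values are estimated counts, 1 per gene and library, and all are whole numbers as deposited by the authors; Salmon and the mm10 build are named in the submitters' processing notes, and the version and annotation are not given in the sources used here. Salmon assigns reads among similar transcripts by likelihood, which bears on genes with copies. Totals ran from 12742953 to 16884621 counts per library, and no molecular identifiers are described, so depth speaks to counting error only. Genes were matched by identifier to GENCODE release 21 (37607 of 37882), and copies were found with BLAST+ 2.17.0. edgeR 4.0.16 in R 4.3.3 tested the side with treatment as a covariate (quasi-likelihood, 7 residual degrees of freedom) on the nuclear genes that passed filterByExpr (22075 did not), with TMM scaling over nuclear genes and Benjamini-Hochberg adjustment. Printed CPM are relative to the TMM-scaled nuclear totals. Each printed SE is approximate: the absolute log2 fold change divided by the square root of the test's F statistic. limma 3.58.1 and DESeq2 1.42.0 were alternatives. Named genes were, in each direction, the 12 of largest fold and 6 of smallest p with a mean of at least 5 CPM and the same sign in both treatments, up to 4 of smallest p per list, and genes called for the interaction; others were named after their values were seen. The members and the 50 lists were chosen with earlier results of these data known. On simulated counts, the side comparison called 0 of 15246 genes under no change, and among 15250 genes it recovered 0, 32, 68 and 74% of genes changed by 1.5, 2, 3 and 4-fold with 3 false calls. Only 50 genes were changed at each fold, against 1319 called in the data, and each gene was drawn independently of the others. These rates therefore do not carry over directly to the data. Some results are not reported here.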

Additional observations from a re-analysis of the deposited data

Results flagged for a closer look

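Among 243 groups of 5 values, 25 had a library far from the other 4 (gap over range above 0.71). About 1 in 20 groups would pass if values were normally distributed and independent. CPM of named genes in the same libraries are not, so the 25 are not read as an excess. Of 21 outlying gene values 19 were the highest of their group. TMA-ARB 9 accounted for 12 of the 25, TMA-ARB 7 for 5, Control 3 and Control 5 for 3 each, and Control 4 and TMA-ARB 6 for 1 each.

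In TMA-ARB 9 these were the mitochondrial share (24.97%), the nuclear count (9.561e+06), the first principal component (107.6), and the CPM of Gm15832 (117.7), Gm17066 (110.6), Fmo1 (92.38), Adamts13 (54.91), Crebbp (206.3), Sgip1 (105.1), Gm13340 (120.3), Gm11408 (5.061) and, as the lowest of its side, E2f1 (22.93). In TMA-ARB 7 they were the CPM of Fastkd2 (65.51), Tfam (97.55), Dpt (6.061), Lum (86.51) and, as the lowest, Oas1a (20.06). Control 5 stood apart from the other 4 libraries of its side on the first principal component (-14.78) and in the CPM of Rps2 (78.94) and Adamts13 (9.417). Control 3 stood apart for Gm4735 (0.6311 CPM), Srp54a (0.07013 CPM) and Bgn (63.39 CPM), Control 4 for Cbr2 (46.64 CPM) and TMA-ARB 6 for Myl9 (122.9 CPM).

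For 10 genes the log2 difference between sides differed between TMA-ARB and Control by the interaction test. The difference was -9.351 for Gm15922, 2.759 for Malat1, -3.271 for Fcrls, -2.244 for Rcn3, -3.723 for Cbr2, -3.327 for Myl9, 5.232 for Avil, -3.097 for Bgn, 2.078 for Neat1 and -1.857 for Mrc1.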

How the results depend on the processing

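Against 544 genes called higher and 775 lower, DESeq2 called 1100 and 1141, a fit without the low-count filter 926 and 1366, the log2 share as a continuous term 1017 and 1509, an adjusted p under 0.10 1022 and 1340, the added muscle and adipocyte terms 13 and 24, and the Control libraries alone 6 and 22. Leaving out 1 library gave 199 to 647 higher and 290 to 922 lower. Under voom weights, RLE scaling, library sizes over all genes, a minimum of 5 CPM, no treatment term, the TMA-ARB libraries alone and mitochondrial copies left out, both counts stayed within 1.5 times. Similar counts need not be the same genes. The TMA-ARB libraries alone called 535 higher and 705 lower, of which 275 and 419 were among the 544 and 775. So did 2 alternatives chosen after seeing the data: 552 and 731 without near-identical copies, and 502 and 631 for protein-coding genes alone. The interaction called 10 genes, against 138 in DESeq2, 400 without the filter, and 0 to 13 with 1 library left out.

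Of 102 called genes among those named, 47 kept the call without each library in turn, 25 lost it in 1 to 4 fits and 30 in 5 or more. Single genes changed sign: Myl9 under voom weights (0.044) and the muscle and adipocyte terms (0.10); Mrc1 (0.020), Fcrls (0.11), Rcn3 (0.45), Cbr2 (1.28), Avil (-1.46), Bgn (0.014) and Myl9 (1.11) in Control alone; and Avil (-0.21 to 2.27) and Myl9 (-0.85 to 0.048) over the fits that left out 1 library, reversed without TMA-ARB 6 (Avil -0.09) and, for Avil (-0.21), without TMA-ARB 7. The cause was not tested. No paired analysis was possible because the replicate numbers run from 1 to 10 and no number is shared between the treatment groups. A gene at 0 in a library is limited by a floor of 3 counts.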
